A study of Mus musculus with 36 samples.

Results

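The genes described here encode the proteins of the cytosolic ribosome, together with Eef2, the elongation factor that moves the ribosome along the mRNA. They were chosen by symbol: protein-coding genes named Rpl or Rps with a digit, plus Rpsa, Rplp0, Rplp1, Rplp2 and Eef2, with pseudogenes and the Rps6k kinases left out. The rule gave 86 genes, of which 32 belong to the small subunit, 53 to the large subunit and 1 is Eef2, out of 27179 genes in the count files and 78275 in the CD8 tables. All 86 were listed in both kinds of file.

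The RNA-seq libraries came from small intestine of mice without (KO) or with (WT) the long noncoding RNA lnc13. Intraepithelial lymphocyte (IEL) preparations, lamina propria lymphocyte (LPL) preparations and whole tissue each had 2 KO and 2 WT libraries, and both genotypes carried DQ8, a human class II molecule linked to coeliac disease, and had been challenged with gluten. CD8 IELs had 3 KO and 3 WT libraries without stimulation, and 3 KO and 3 WT libraries after 48 h in culture with IL-15, a cytokine that activates these cells; the labels name neither DQ8 nor gluten for them. The other 12 of the 36 samples were not analysed here. The labels call the libraries biological replicates without tying them to animals, so the p-values measure the spread between these libraries.

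The small subunit holds the mRNA and decodes it, and the large subunit joins the amino acids. Many transcripts of ribosomal proteins begin with a C followed by a run of pyrimidines, the terminal oligopyrimidine (TOP) tract, through which mTOR signalling sets their translation. In the small intestine ribosome production is known to be high in dividing crypt cells, and lymphocytes raise it when they are activated.

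RefSeq promoter windows of GRCm38.p6 were found for 66 of the 86 genes. They are shown for members whose values are described in the next paragraphs, for Rps6 as a well-known TOP transcript, and for the Rps27 and Rps27l pair. Each line runs from 30 bases before the annotated start to 25 bases from it, and capitals mark a C at the start followed by at least 4 pyrimidines; a sequence with no capitals lacks one at that base.
Rps18 (chr17:33955641-33955695, minus strand): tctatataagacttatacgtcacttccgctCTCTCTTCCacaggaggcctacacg
Rps21 (chr2:180257349-180257403, plus strand): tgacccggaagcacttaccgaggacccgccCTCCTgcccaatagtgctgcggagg
Rps6 (chr4:86857343-86857397, minus strand): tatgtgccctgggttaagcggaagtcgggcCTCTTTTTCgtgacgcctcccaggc
Rps27 (chr3:90213624-90213678, minus strand): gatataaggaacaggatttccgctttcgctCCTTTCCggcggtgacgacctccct
Rps27l (chr9:66946056-66946110, plus strand): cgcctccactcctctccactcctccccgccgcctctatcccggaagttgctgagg
Rpl12 (chr2:32961682-32961736, plus strand): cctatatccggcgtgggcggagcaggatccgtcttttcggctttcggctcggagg
Rpl5 (chr5:107900498-107900552, plus strand): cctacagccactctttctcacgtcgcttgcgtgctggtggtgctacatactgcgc
Rpsa (chr9:120127736-120127790, plus strand): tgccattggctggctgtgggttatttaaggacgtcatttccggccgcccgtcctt
Eef2 (chr10:81176601-81176655, plus strand): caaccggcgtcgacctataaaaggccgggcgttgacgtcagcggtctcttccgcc
At the annotated start, 14 of the 66 members (21.2%) had such a C and pyrimidine run, against 3.01% of 27025 genes with a promoter window. The motif CGGAAG, searched on both strands as CGGAAG or CTTCCG over the 300 bases of a window, was in 44 of the 66 members (66.7%), against 18.8% of all genes with a window and 32.4% of the 11255 among them that were tested in tissue, LPL and IEL. TATAAA on either strand was in 13.6% of members, 15.7% of all genes with a window and 9.78% of the tested ones. Of 16 other translation genes with a window, 4 (25.0%) had the C and pyrimidine run, 6 (37.5%) CGGAAG and 1 (6.25%) TATAAA. In Rpl12 a run of pyrimidines begins just inside the annotated start, so the count depends on the base that RefSeq gives as the start.

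Reads in genes numbered 10186522 to 13620975 per library in IEL, LPL and tissue, 16428511 to 23762128 in unstimulated CD8 cells and 14724754 to 26997371 in the IL-15 set. The labelled cell types were checked against marker genes. The summed level of 11 T cell markers was 252 to 586 CPM (counts scaled to a common library size) in KO and 231 to 798 CPM in WT IEL libraries, 2.8 to 18.5 CPM in KO and 18.4 to 138 CPM in WT LPL libraries, and 35.9 to 80.6 CPM in KO and 36.5 to 51.5 CPM in WT tissue. The 138 CPM were those of LPL WT replicate 1, which stood apart from the other 3 LPL libraries, and Trac was at 0 in LPL KO replicate 1. In LPL libraries 7 pan-epithelial markers summed to 10571 to 10709 CPM in KO and 7889 to 11160 CPM in WT. They summed to 7647 to 8291 CPM in KO and 6816 to 8644 CPM in WT IEL libraries. In tissue they reached 18510 to 19311 CPM in KO and 16085 to 16640 CPM in WT. The 6 plasma cell markers summed to 1024 to 2596 CPM in KO and 863 to 5547 CPM in WT LPL libraries. Their sums were 440 to 859 CPM in KO and 531 to 1015 CPM in WT tissue, and 282 to 296 CPM in KO and 343 to 381 CPM in WT IEL. Outside WT replicate 1, T cell sums in LPL lay below those of every tissue library. Plasma cell sums of the KO LPL libraries lay above those of every tissue library. The names IEL and LPL are used below as labels of the preparations, not as evidence of enriched lymphocytes, and the data do not fix their cell makeup. A symbol for lnc13 was not among the gene names used here, so its loss in KO was not checked. In bulk RNA, fewer cells of a type and less RNA per cell cannot be told apart.

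The 86 genes took a larger share of reads in LPL preparations than in IEL preparations or whole tissue. LPL libraries gave 4.80% and 5.43% in KO and 4.88% and 5.08% in WT. IEL libraries gave 3.39% and 2.53% in KO and 3.71% and 2.56% in WT. Tissue gave 2.27% and 1.71% in KO and 3.18% and 2.37% in WT, so the 4 LPL libraries stood above all 8 others and both KO tissue libraries lay below both WT ones. The ratio of small to large subunit reads ranged only from 0.649 to 0.688 over these 12 libraries, so the 2 subunits kept nearly the same proportion while the total varied. Mitochondrially encoded genes took 18.5% to 23.8% of reads in IEL, 5.89% to 25.0% in LPL and 2.77% to 4.24% in tissue.

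**Figure D1:**
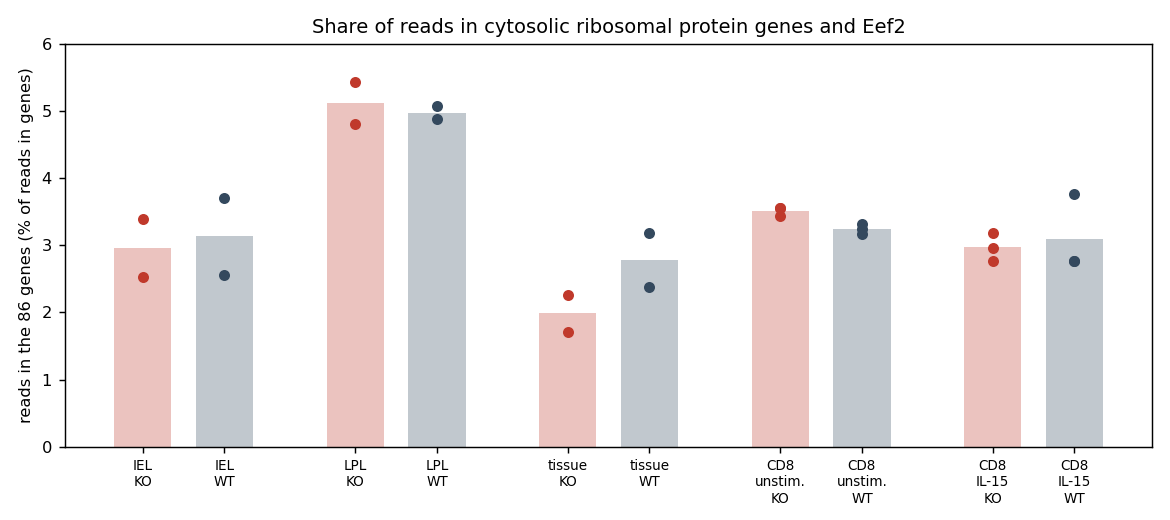
Share of reads in genes that fell in the 86 genes, in percent, for each library (points) and as the mean of a group (bars), KO left of WT. LPL libraries lie between 4.80% and 5.43%, above all IEL and tissue libraries, and CD8 libraries, whose tables were made apart, lie between 2.76% and 3.76%.

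Against whole tissue, ribosomal protein transcripts rose together in the LPL preparations. Of the 82 members that passed the filter on low counts, 70 rose and none fell at an adjusted p under 0.05, where 27.3% of all 14716 genes tested rose, 28.0% fell and 55.3% changed either way (edgeR quasi-likelihood test). The median log2 difference was 0.71 over members and 0.029 over all genes. The median was 0.73 over 32 small subunit members, of which 27 rose, and 0.71 over 49 large subunit members, of which 43 rose. The other 4 members (Rpl39, Rpl39l, Rpl3l and Rpl10l) were too low to be tested.

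Rpsa, a small subunit protein also known as the laminin receptor precursor, had 1516 and 1212 CPM in KO and 1345 and 1210 CPM in WT LPL libraries, against 620 and 481 CPM in KO and 782 and 582 CPM in WT tissue. The lowest LPL library was thus above the highest tissue library. The log2 difference was 1.09 ± 0.20 (SE), with an adjusted p of 0.00202 by edgeR.

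Rps27a, which is made as a fusion of ubiquitin and a small subunit protein, showed the largest difference. It had 416 and 283 CPM in KO and 317 and 316 CPM in WT LPL libraries, against 122 and 188 CPM in KO and 127 and 126 CPM in WT tissue. The groups did not overlap, and the log2 difference was 1.23 ± 0.29 (SE, adjusted p 0.00624 by edgeR).

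Rpl36, of the large subunit, had 351 and 251 CPM in KO and 335 and 262 CPM in WT LPL libraries, against 130 and 126 CPM in KO and 145 and 130 CPM in WT tissue. Tissue libraries were close to each other and all LPL libraries were far above them, with a log2 difference of 1.16 ± 0.18 (SE, adjusted p 8.34e-04 by edgeR). Rps18, whose promoter window above carries a TOP start, averaged 743 ± 86 CPM in LPL and 348 ± 46 CPM in tissue (SD, n = 4 each), a log2 difference of 1.08. Rps19, the gene most often mutated in human Diamond-Blackfan anaemia, averaged 458 ± 51 CPM in LPL and 218 ± 44 CPM in tissue (SD, n = 4 each), a log2 difference of 1.06. Rpl12, which sits at the base of the ribosomal stalk, Rpl3, which lines the peptidyl transferase centre, and Rps12 rose by log2 differences of 1.05, 1.00 and 0.98. All 8 of these members rose in each of 14 alternative fits.

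The 12 tested members that did not pass included Rps27l, Rps14, Rpl28, Eef2, Rpl18, Rpl41, Rps26, Rplp2, Rplp0, Rps2 and Rpl32l. The stalk proteins Rplp0 and Rplp2, which recruit translation factors, had log2 differences of 0.52 and 0.50 with adjusted p of 0.0781 and 0.0641, whereas their partner Rplp1 rose by 0.59 (adjusted p 0.0184, edgeR). Eef2 had 2080 and 3101 CPM in KO and 1869 and 2941 CPM in WT LPL libraries, against 2376 and 1354 CPM in KO and 2201 and 1680 CPM in WT tissue. These values overlap, and the log2 difference of 0.37 ± 0.26 (SE) did not pass (adjusted p 0.257, edgeR). Eef2k, the kinase that inactivates Eef2, fell to 43.5 ± 6.1 CPM in LPL, against 79.0 ± 7.8 CPM in tissue (SD, n = 4 each; log2 difference -0.89, adjusted p 9.0e-04 by edgeR).

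**Figure D2:**
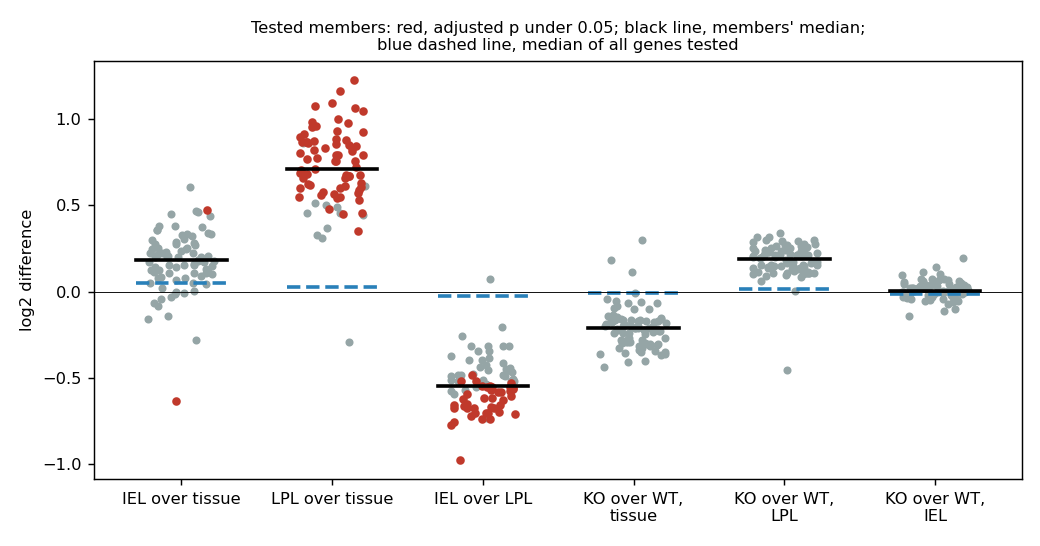
Log2 differences of the 82 tested members (points, spread sideways for legibility) in 6 comparisons of IEL, LPL and tissue; red points passed an adjusted p of 0.05, black lines are the members' medians and blue dashed lines the medians of all 14716 genes tested. Members sit above all genes in LPL over tissue (0.71 against 0.029) and below them in IEL over LPL (-0.55 against -0.025), and no member passed between KO and WT.

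Genes that build ribosomes rose with the ribosomal proteins. Of 31 ribosome biogenesis genes, 28 rose and 1 fell in LPL against tissue, with a median log2 difference of 1.25. Nop56, a core protein of the snoRNPs that methylate ribosomal RNA, averaged 99.8 ± 6.9 CPM in LPL and 23.3 ± 5.9 CPM in tissue, and Wdr43, a factor of small subunit assembly, averaged 76.4 ± 3.6 CPM in LPL and 23.0 ± 3.4 CPM in tissue (SD, n = 4 each). Of 23 other translation genes 10 rose and none fell (median 0.53); Eif4a2, an RNA helicase of translation initiation, rose by a log2 difference of 1.05. Of 77 mitochondrial ribosomal proteins 42 rose and 4 fell (median 0.51), and of 17 genes of mTOR and TOP mRNA control 7 rose and 2 fell (median 0.32), among the risers Larp4 (1.04) and the S6 kinase gene Rps6kb1 (0.83).

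Other marker genes moved in the same comparison. Of 16 cell cycle genes 14 rose (median 1.27) and of 8 crypt stem cell genes 5 rose (median 0.98), among them Olfm4 at 426 ± 60 CPM in LPL and 90.6 ± 45.0 CPM in tissue (SD, n = 4 each). Of 10 enterocyte genes 8 fell (median -2.47), all 8 smooth muscle genes fell (median -5.12), all 13 exocrine pancreas genes rose, and all 9 immediate early genes, which are induced by stress and handling, rose (median 4.26). The part of these shifts in the members' rise was not tested. Without the pancreas genes in the fit, 74 members rose, and the share of all genes that rose in that fit is not given here.

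Members were also divided by the TOP start of their window, without a test. Of 14 members with it 11 rose (median 0.77), and of 48 tested members with a window but no such start 41 rose (median 0.68). Among 325 other tested genes with a TOP start, 77 rose (23.7%) and 86 fell (26.5%), with a median of 0.073. Of all 14716 genes tested, 27.3% rose and 28.0% fell.

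**Figure D3:**
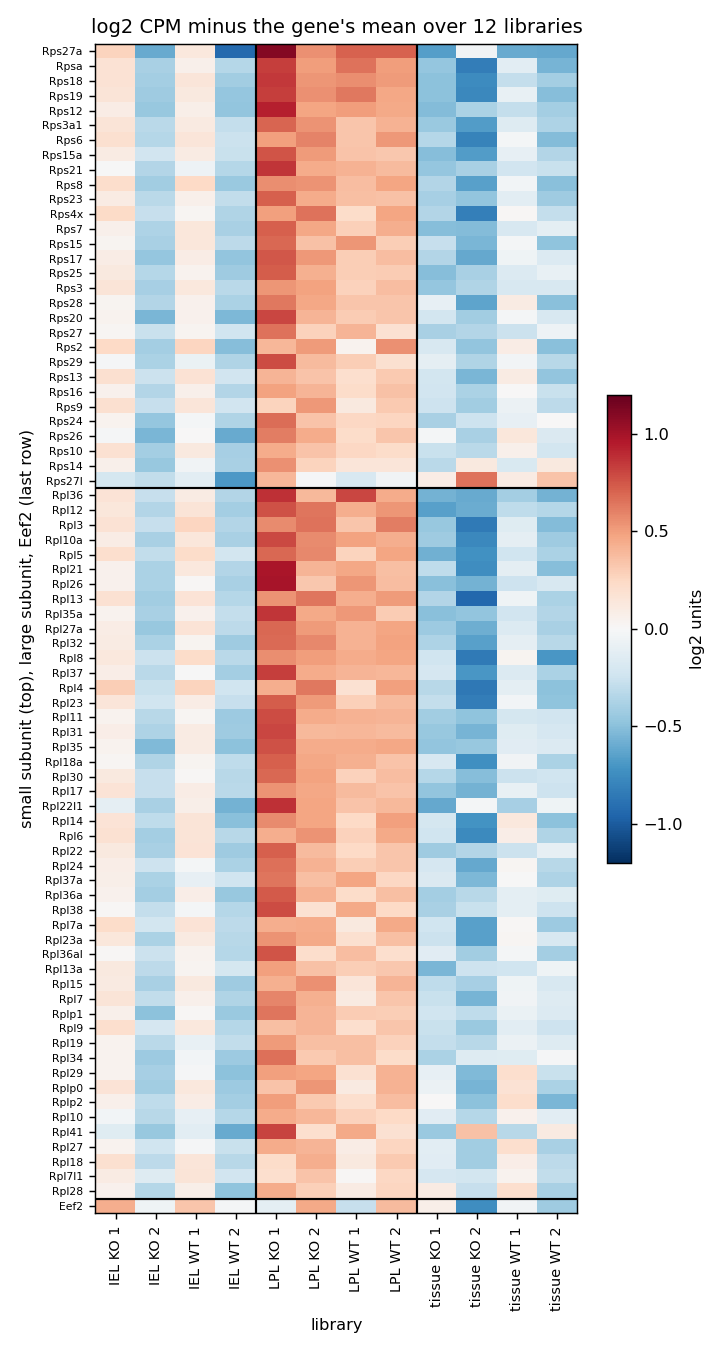
Log2 CPM of 79 members in 12 libraries, each gene minus its own mean over the libraries, with small subunit genes on top, large subunit genes below and Eef2 in the last row; KO stands left of WT in each preparation, and genes are sorted by their difference between LPL and tissue. The LPL columns are red in nearly all rows, replicate 1 of IEL lies above replicate 2 in both genotypes, and Rps27l and Eef2 depart from the common pattern.

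IEL preparations had lower levels of ribosomal protein transcripts than LPL preparations. Of 82 tested members 41 fell and none rose, where 7.92% of all genes tested fell, 11.5% rose and 19.4% changed either way (edgeR quasi-likelihood test), and the median log2 difference was -0.55 over members and -0.025 over all genes. The number called changed with the libraries in the fit. It was 1 without LPL KO replicate 1, IEL KO replicate 2 or IEL WT replicate 2. It was 5 without LPL WT replicate 1, 22 without LPL WT replicate 2 and 36 without LPL KO replicate 2. The share of all genes called in those fits is not given here, so these counts do not set members against other genes. The members' median stayed between -0.68 and -0.49 in all 8 fits that left out a library.

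Rps12, of the small subunit, had 358 and 245 CPM in KO and 354 and 243 CPM in WT IEL libraries, against 645 and 469 CPM in KO and 479 and 462 CPM in WT LPL libraries. The groups did not overlap, and the log2 difference was -0.75 ± 0.19 (SE, adjusted p 0.0240 by edgeR). Rps27a showed the largest fall, with 232 and 127 CPM in KO and 211 and 101 CPM in WT IEL libraries, a log2 difference from LPL of -0.98 ± 0.29 (SE, adjusted p 0.0424 by edgeR). Its replicate 1 lay far above its replicate 2 in both genotypes of IEL.

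Rpl22l1 fell by 0.74, Rps19 by 0.74, Rpl26 by 0.72, Rpsa by 0.71 and Rpl35 by 0.71 on the log2 scale. Rpl26 is known, like Rpl5 and Rpl11, for a role in p53 control beside its place in the large subunit. Rplp1 fell by 0.59 (adjusted p 0.0443), and Rplp0 and Rplp2 had log2 differences of -0.45 and -0.46 that did not pass (adjusted p 0.192 and 0.151, edgeR). Eef2 was the one member with a positive difference, 0.073 ± 0.26 (SE), with 3059 and 2188 CPM in KO and 2857 and 2223 CPM in WT IEL libraries, a range that overlaps that of LPL. Its sign turned in other fits. Of 31 ribosome biogenesis genes 17 fell and none rose (median -0.61), led by Gnl3, the nucleolar protein nucleostemin, at 22.5 ± 5.8 CPM in IEL and 61.6 ± 11.0 CPM in LPL (SD, n = 4 each), while 1 of 23 other translation genes, Eif4a1, and 2 of 77 mitochondrial ribosomal protein genes, Mrps28 and Mrpl52, fell and none rose.

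Marker genes differed in the same comparison. Enterocyte genes summed to 13666 to 21101 CPM in IEL and 1993 to 3466 CPM in LPL libraries, with 9 of 10 higher, and T cell genes to 231 to 798 CPM in IEL and 2.8 to 138 CPM in LPL, with 8 of 11 higher. Exocrine pancreas genes summed to 28.3 to 66.0 CPM in IEL and 6221 to 12090 CPM in LPL, all 13 lower, and immediate early genes to 5774 to 7428 CPM in IEL and 11324 to 13661 CPM in LPL, with 4 of 9 lower. The part of these shifts in the members' fall was not tested. Without the pancreas genes in the fit 46 members fell, and the share of all genes that fell in that fit is not given here.

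Within IEL preparations the replicate number divided the members more clearly than the genotype did. All 82 members were higher in replicate 1 than in replicate 2 in KO and also in WT, where 35.5% of all 14716 genes were. The median log2 difference of replicate 1 over replicate 2 was 0.46 in KO and 0.45 in WT, against 0.0066 and 0.016 over all genes. In tissue 60 of 82 members were higher in replicate 1 in both genotypes (34.1% of all genes) and in LPL 33 of 82 (27.2%). Replicates 1 and 2 of IEL also differed in Cd3e, a T cell receptor subunit, at 30.3 and 55.0 CPM in KO and 26.7 and 77.3 CPM in WT, and in Olfm4, at 432 and 250 CPM in KO and 527 and 273 CPM in WT. The part of cell makeup in the difference between replicates was not tested.

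Between IEL preparations and whole tissue most members did not pass. Of 82, 1 rose and 1 fell, where 21.9% of all genes rose, 23.1% fell and 45.0% changed either way (edgeR quasi-likelihood test), and the median log2 difference was 0.18 over members and 0.050 over all genes. Rpl5, which binds 5S ribosomal RNA and, when free, the p53 regulator Mdm2, had 643 and 456 CPM in KO and 651 and 480 CPM in WT IEL libraries, against 373 and 337 CPM in KO and 474 and 430 CPM in WT tissue. The ranges overlap at 456 and 474 CPM, and the log2 difference was 0.47 ± 0.16 (SE, adjusted p 0.0418 by edgeR). It passed in 6 of 14 alternative fits and did not without any of the 4 tissue libraries, IEL KO replicate 1 or IEL WT replicate 1. Rpl36 had a log2 difference of 0.46 (adjusted p 0.0657) and Rps15a one of 0.34 (adjusted p 0.0828), neither of which passed.

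Rps27l, a paralog of Rps27 known as a p53-induced gene, was the member that fell. It had 92.6 and 87.6 CPM in KO and 98.6 and 66.5 CPM in WT IEL libraries, against 114 and 169 CPM in KO and 115 and 135.8 CPM in WT tissue. No IEL library reached the lowest tissue library, and the log2 difference was -0.63 ± 0.19 (SE, adjusted p 0.0226 by edgeR). It passed in 8 of 14 alternative fits and did not without tissue KO replicate 2, tissue WT replicate 2, IEL KO replicate 1, IEL KO replicate 2 or IEL WT replicate 2. Its canonical partner Rps27 had a log2 difference of 0.15 in the same comparison (adjusted p 0.425), and in LPL against tissue Rps27 rose by 0.63 (adjusted p 0.00691, edgeR) while Rps27l had -0.29 (adjusted p 0.211), the single negative value among the 82 members.

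The ratio of each paralog to its canonical partner was compared between preparations for 4 pairs of members, which gives 12 comparisons. Both genes of each pair had a mean of at least 5 CPM. Rps4l and Rps4x also exceeded that level, but Rps4l was not among the members, so their ratio was not tested. Reads of Rps4l were 5.42% to 6.69% of those of Rps4x in LPL and 9.23% to 13.7% in tissue libraries, without overlap. In IEL libraries they were 7.12% to 14.6%, which overlaps tissue. Reads of Rps27l were 40.8% and 47.1% of those of Rps27 in KO and 43.1% and 35.2% in WT IEL libraries, 40.5% and 39.2% in KO and 31.7% and 41.1% in WT LPL libraries, and 66.9% and 96.8% in KO and 61.5% and 63.6% in WT tissue. All IEL and LPL libraries lay below all tissue libraries. The log2 ratio differed by -0.78 in IEL and by -0.90 in LPL against tissue, each with p = 0.0286 in a two-sided exact permutation test, the smallest that 4 against 4 libraries allow, and an adjusted p of 0.0857 over the 12 comparisons, which does not pass.

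Rpl22l1, the paralog that can replace Rpl22, gave 35.2% to 41.2% of the reads of Rpl22 in IEL and 43.0% to 46.1% in LPL, without overlap; the log2 ratio differed by -0.22 (exact permutation p = 0.0286, adjusted 0.0857). Rpl7l1 against Rpl7 differed by 0.24 between IEL and LPL with the same p. Rpl36al and Rpl36a had nearly equal counts in IEL, LPL and tissue, and none of their 3 comparisons had an exact permutation p below 0.4. In CD8 libraries, however, Rpl36al was at 1.68% to 8.86% of Rpl36a. Rpl7l1 was at 9.41% to 15.5% of Rpl7 in IEL, LPL and tissue, and at 27.7% to 79.1% in CD8 libraries. The part of counting in these differences between the kinds of file was not tested. Where a paralog and its partner are nearly identical, reads that fit both could be split between them by the counting, which was not measured here.

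**Figure D4:**
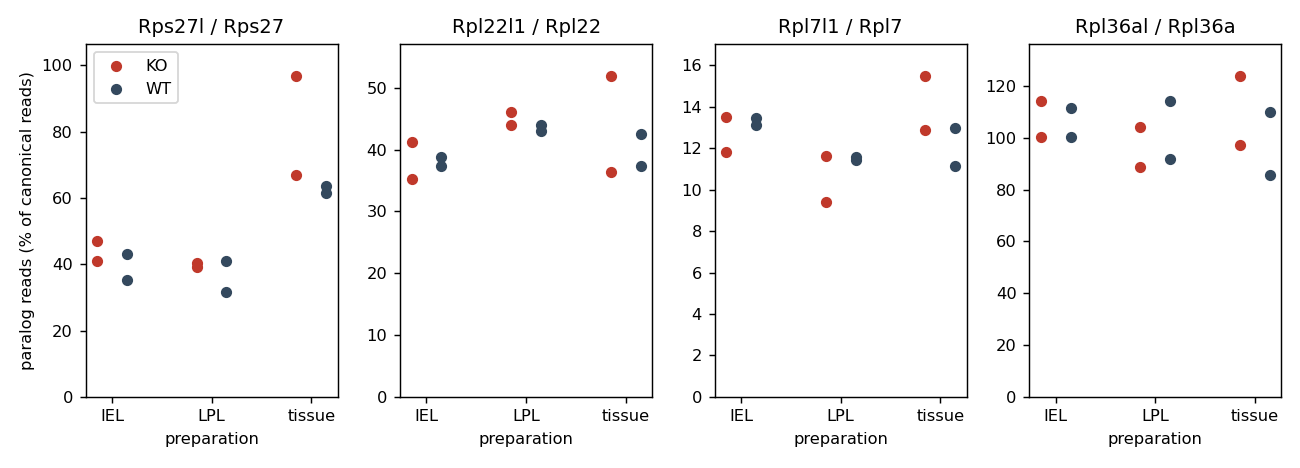
Reads of 4 paralogs as a percentage of the reads of their canonical partner, one point per library, KO left of WT within IEL, LPL and tissue. Rps27l lies between 31.7% and 47.1% of Rps27 in IEL and LPL libraries and between 61.5% and 96.8% in tissue, the clearest separation of the 4 pairs.

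Loss of lnc13 changed no member past the threshold in any preparation. The edgeR quasi-likelihood test called 0 of 82 members, and 0.0% of 14716 genes, in tissue, in LPL and in IEL. No member had an unadjusted p under 0.05 in any of the 3 comparisons, and DESeq2 also called no member. The directions differed between the preparations. In tissue 79 of 82 members had a negative difference (median -0.21, all genes -0.0096), in LPL 81 had a positive one (median 0.19, all genes 0.013), and in IEL 46 were positive and 36 negative (median 0.0055, all genes -0.016). Members rise and fall together within a library, so these counts are not independent observations.

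In tissue, 37 of 82 members had both KO libraries below both WT libraries and none had both above, where 12.3% of all genes lay below and 13.2% above. Rps15a, of the small subunit, had 158 and 142 CPM in KO and 211 and 177 CPM in WT tissue, a log2 difference of -0.37 ± 0.20 (SE). Rps4x, encoded on the X chromosome, had 243 and 175.7 CPM in KO and 313 and 254 CPM in WT, a difference of -0.43 ± 0.25 (SE). Both had KO below WT without overlap, as did Rpl17 at -0.35 ± 0.21 (SE), whereas Rpl13 overlapped at -0.41 ± 0.27 (SE), and the adjusted p of each was 1.0 (edgeR).

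Crypt and growth genes leaned the same way in these KO tissue libraries, without passing. All 8 crypt stem cell genes (median -0.56), 15 of 16 cell cycle genes (median -0.49) and 27 of 31 ribosome biogenesis genes (median -0.30) had negative differences, and 9 of 10 enterocyte genes positive ones (median 0.73). Enterocyte markers summed to 28721 and 34395 CPM in KO and 17525 and 26974 CPM in WT tissue libraries. Their part in the members' values was not tested. Rps27a, Rps27l and Rpl41 were the 3 members with positive values; Rps27a had 122 and 188 CPM in KO and 127 and 126 CPM in WT tissue, so that KO replicate 2 alone was high.

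In LPL, 47 of 82 members had both KO libraries above both WT libraries and 1 below, where 10.5% of all genes lay above and 8.17% below. These levels depend on the scaling. The TMM factor of KO replicate 1 was 0.984, against 1.19 to 1.23 in the other LPL libraries. The shares of reads given above overlap between KO and WT, and with library totals alone the median was 0.051. Nuclear reads leave out the mitochondrially encoded genes. As a share of nuclear reads, members took 6.40% and 5.77% in KO and 5.46% and 5.49% in WT, without overlap. Rps29, of the small subunit, had 445 and 335 CPM in KO and 317 and 295 CPM in WT LPL libraries, a log2 difference of 0.34 ± 0.23 (SE). Rps15a had 380 and 321 CPM in KO and 287 and 281 CPM in WT, a difference of 0.29 ± 0.20 (SE). Rps21 and Rpl30 had differences of 0.26 and 0.25 in LPL, again without overlap of KO and WT, and all 4 had an adjusted p of 1.0 (edgeR). Beside this, LPL KO replicate 1 had the largest share of mitochondrially encoded reads, 25.0%. All 8 crypt stem cell genes had positive differences between KO and WT (median 0.26), and all 11 T cell genes (median -3.09), 8 macrophage genes (median -3.38) and 7 B cell genes (median -3.47) had negative ones, none passing. In WT these genes were high in replicate 1 alone. The T cell genes summed to 2.8 to 18.5 CPM in KO, against 138 and 18.4 CPM in WT replicates 1 and 2, and the macrophage genes to 12.1 to 17.3 CPM in KO, against 107 and 14.8 CPM in WT replicates 1 and 2. The B cell genes had summed levels of 11.7 to 19.4 CPM in KO and 167 and 8.6 CPM in WT replicates 1 and 2. Without LPL WT replicate 1 the members' median was 0.19. The part of these shifts in the members' values was not tested.

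In IEL no member had KO and WT libraries apart, where 15.8% of all genes lay above and 11.5% below. The members with the smallest p were Rps4x, at 365 and 257 CPM in KO and 317 and 243 CPM in WT, Rpl27a, at 388 and 267 CPM in KO and 410 and 294 CPM in WT, Rps27a and Rpl9. In each the 2 replicates of a genotype lay further apart than the 2 genotypes did.

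The difference between preparations in the KO effect was tested directly. LPL against tissue gave a median difference of log2 differences of 0.40 over members and -0.023 over all genes, with 80 of 82 positive. Rps15a had 0.66 ± 0.29 (SE), the single member with an unadjusted p under 0.05 (0.0465), and no member passed (smallest adjusted p 1.0, edgeR). IEL against tissue gave a median of 0.23 and IEL against LPL one of -0.18, with no member passing or below an unadjusted p of 0.05. DESeq2 called no member in the 3 interactions.

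In unstimulated CD8 IELs the share of reads in the 86 genes was 3.56%, 3.55% and 3.43% in KO and 3.24%, 3.17% and 3.32% in WT libraries, without overlap. T cell markers summed to 228447 to 233971 normalised counts in KO and 166265 to 240374 in WT libraries, far above 3753 to 5729 in KO and 2240 to 9678 in WT for enterocyte markers. Immediate early genes summed to 4380 to 8319 in KO and 2458 to 3887 in WT libraries, and mitochondrial ribosomal protein genes to 122429 to 127634 in KO and 95623 to 111827 in WT, both without overlap and with none of their genes passing. Their part in the members' values was not tested. No member passed and 0.0% of 17208 genes did (limma-trend on log2 of the authors' normalised counts plus 1); 4 of 84 tested members had an unadjusted p under 0.05, and edgeR on recovered reads called none. Of 84 members 15 had all KO libraries above all WT libraries and none below, where 3.81% of all genes lay above and 4.71% below. The median log2 difference was 0.28 over members and -0.079 over all genes, whose quartiles were -1.55 and 1.06.

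Eef2 had the smallest p. It had 30635, 31835 and 28896 normalised counts in KO and 17546, 13777 and 16906 in WT libraries, so that every KO library was above every WT library. The log2 difference was 0.93 ± 0.13 (SE) with an adjusted p of 0.417 (limma), and it ranged from 0.78 to 1.00 over 13 alternatives, with adjusted p of 0.309 to 0.925. Rps14, a small subunit protein, had 27217, 28747 and 38081 in KO and 22961, 22021 and 26108 in WT libraries (log2 difference 0.39 ± 0.15, SE). Rps6, the substrate of S6 kinase, and Rpl18 had differences of 0.52 ± 0.21 and 0.65 ± 0.27 (SE), both with KO and WT apart, and these 3 had an adjusted p of 0.903 (limma).

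In the IL-15 set the shares were 2.76%, 2.96% and 3.18% in KO and 2.76%, 2.77% and 3.76% in WT, with WT replicate 3 above all others. That library also stood apart in the ratio of Rps27l to Rps27, at 10.3%, against 32.0%, 29.3% and 35.0% in KO and 33.4% and 35.7% in the other WT libraries. No member and 0.0% of 16371 genes passed (limma-trend); 2 of 83 members had an unadjusted p under 0.05, and edgeR on recovered reads called none. All KO libraries lay below all WT libraries for 10 of 83 members and above for none, where 9.16% of all genes lay below and 11.1% above, so this share of members was near that of all genes. The median log2 difference was -0.13 over members and 0.083 over all genes, and without WT replicate 3 it was -0.033 over members.

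Rpl17, at the exit tunnel of the large subunit, had 3634, 3603 and 3903 normalised counts in KO and 4269, 4226 and 5523 in WT libraries, a log2 difference of -0.32 ± 0.14 (SE, adjusted p 0.442, limma). Rpl34, Rplp1 and Rpl3 had differences of -0.29, -0.29 and -0.26, each with KO below WT without overlap and none passing. Eef2 overlapped here, with 10081, 9278 and 12044 in KO and 10842, 9919 and 19419 in WT libraries (log2 difference -0.30 ± 0.25, SE). The 2 CD8 tables were normalised apart, so the difference of Eef2 between them was not tested.

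**Figure D5:**
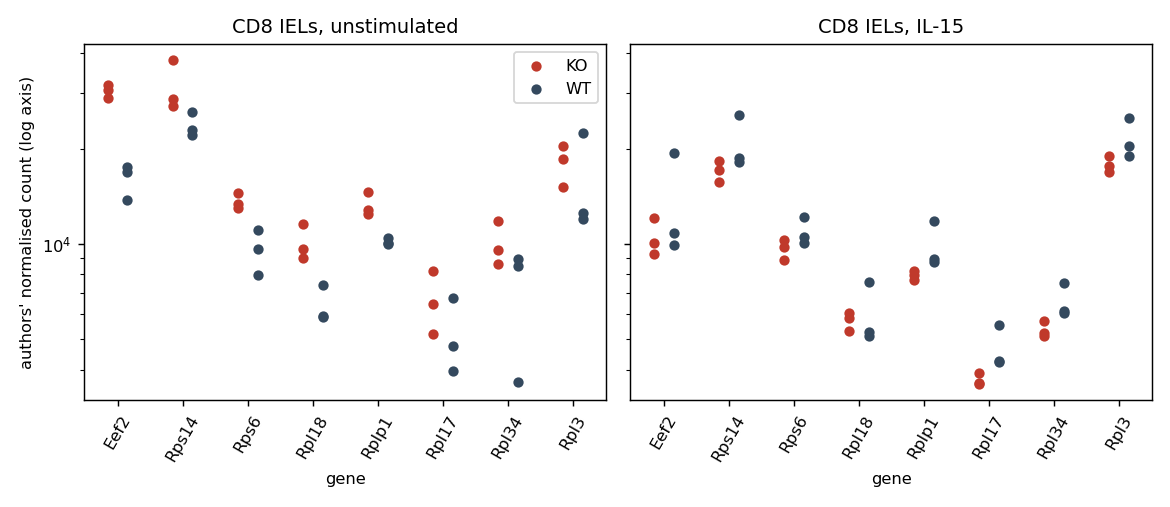
Normalised counts (log axis) of 8 members in CD8 IELs without stimulation (left panel) and with IL-15 (right panel), one point per library, KO left of WT. Eef2 lies between 28896 and 31835 in unstimulated KO libraries and between 13777 and 17546 in WT libraries, while in the IL-15 set KO and WT overlap.

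Some members were nearly absent from one kind of file and abundant in the other. Rpl24 ranged from 178 to 430 CPM over the 12 IEL, LPL and tissue libraries, but in CD8 tables it had 541 normalised counts in unstimulated KO replicate 1 and at most 21.5 in any other library. Rps10 ranged from 183 to 330 CPM in the 12 libraries and from 0.78 to 35.1 normalised counts in CD8 libraries. Rpl39 went the other way, at most 0.72 CPM in the 12 libraries and 880 to 1918 normalised counts in CD8 libraries. Ribosomal protein genes have many near-identical pseudogenes, of which 306 had their own symbol here, and the 2 kinds of file were counted with different annotations; the part of counting was not tested, and no fold change of these 3 genes is given. The paralogs Rpl10l and Rpl39l, known from testis, and Rpl3l, known from muscle, were at or near 0 in IEL, LPL and tissue, with at most 0.47 CPM.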

How the data were processed

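For IEL, LPL and tissue the authors deposited a raw read count per Entrez gene. The aligner is HISAT2 per the file headers, whereas TopHat, featureCounts, DESeq and mm10 are named in the submitters' processing notes. For CD8 cells the authors deposited a normalised signal per Ensembl gene: read counts over a size factor. Each value was a whole multiple, within 0.01, of what 1 read is worth in its library, and those recovered reads gave the CD8 depths and shares. STAR, DESeq2 and mm39 are among the tools and builds that the submitters' processing notes name for CD8 samples. Symbols were found for 25275 of 27179 Entrez and 51486 of 78275 Ensembl IDs.

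The 12 count libraries were fitted jointly as 6 groups (edgeR 4.0.16 quasi-likelihood, TMM, filterByExpr, R 4.3.3). CD8 values were fitted with limma 3.58.1 as log2(value + 1), keeping any gene whose mean reached 5. Adjustment was Benjamini-Hochberg over all genes at 0.05. CPM use TMM factors, and paralog ratios CPM + 0.1. The fits were also run on simulated data drawn without any difference shared by same-numbered libraries, and the outcome is not given here. Alternatives were other size factors, DESeq2 1.42.0, other filters and pseudocounts, pancreas genes left out, each library left out, and replicate blocks.

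Members and lists were chosen with earlier results of these data known. The text names, for each comparison, the 8 members with the greatest positive and the 8 with the greatest negative difference that passed at a mean of 5 CPM or more, or the 4 of smallest p where fewer than 4 passed. Of each gene list described it names up to 3 genes of smallest p. Rpsa, the stalk genes, Eef2 and paralog pairs were added. Naming by level per length was dropped, since no transcript lengths were used here, and single counts of members were named after their values were seen. Other marker lists were computed too: in IEL against LPL, 3 of 5 NK cell genes rose, 6 of 6 plasma cell genes and 1 of 8 macrophage genes fell, and none of 4 erythrocyte genes passed. A few members that the rule would name are not reported here.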

Additional observations from a re-analysis of the deposited data

Results flagged for a closer look

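In 27 members both KO libraries lay below both WT libraries in tissue and above them in LPL, opposite directions in the 2 preparations. The members with the smallest p among them differed between LPL and tissue in their KO effect by 0.66 for Rps15a, 0.65 for Rps4x, 0.48 for Rpl17, 0.43 for Rps21 and 0.43 for Rpl30 on the log2 scale. The interaction test called none of them (adjusted p 1.0, edgeR), and members of a library move together. Taken singly, 12.3% of all genes lay below in tissue and 10.5% above in LPL. The share of all genes with both is not given here, so the count of 27 does not set members against other genes.

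Rplp1 had all KO libraries above all WT libraries in unstimulated CD8 cells (log2 difference 0.38) and all below in the IL-15 set (-0.29). The difference between the sets was not tested.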

How the results depend on the processing

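The rise of members in LPL against tissue held in every alternative, with 62 to 72 members rising when a library was left out and medians of 0.71 to 0.85. With library totals as the only scaling the median of all genes in that comparison was 0.45 and that of members 1.12; the members' median between KO and WT was then -0.50 in tissue (all genes -0.29) and 0.051 in LPL (all genes -0.10). Members that fell in IEL against LPL numbered 65 with DESeq2, 61 with library totals, 28 with no filter and 1 to 36 with a library left out. In IEL against tissue the number that rose was 0 with RLE size factors, 4 with library totals (and 0 fell), 0 with no filter and 0 to 1 with a library left out, and 0 to 1 fell.

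No replicate block was used in the values reported, since 2 pairs cannot show pairing: the deviations of same-numbered libraries had r = 0.641 (tissue), 0.305 (LPL) and 0.465 (IEL). With the replicate block 23 members rose in IEL against tissue, 81 in LPL against tissue, and 78 fell in IEL against LPL. That fit does not count the difference between replicates 1 and 2 as error. Shares of all genes called were given above for the reported fits alone. The member counts of this and the other alternative fits stand without such a share, so they do not set members against other genes. In CD8 cells the correlations were between -0.057 and 0.00079, and the block called no member. Nor did any block, including blocked fits of 1 preparation alone, added after seeing the data, call a member between KO and WT.

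With a library left out, the medians for KO against WT ranged from -0.38 to -0.11 in tissue, 0.10 to 0.31 in LPL and -0.20 to 0.25 in IEL, and those of the interactions from 0.29 to 0.61 (LPL and tissue), 0.055 to 0.48 (IEL and tissue) and -0.42 to 0.046 (IEL and LPL). Signs turned for Rps27l in LPL against tissue (0.13 with library totals) and for Eef2 in IEL against LPL (-0.18 with library totals, -0.084 to 0.21 with a library left out). In IEL, KO against WT ranged from -0.25 to 0.81 for Rps27a, -0.074 to 0.34 for Rpl9, -0.085 to 0.36 for Rps4x and -0.36 to 0.14 for Rpl27a. The ratio of Rpl36al to Rpl36a ranged from -0.046 to 0.13 in IEL and from -0.14 to 0.033 in LPL against tissue, and that of Rpl7l1 to Rpl7 from -0.083 to 0.076 in IEL against tissue. As a share of nuclear reads, members took 6.09% in LPL KO and 5.47% in LPL WT, 3.75% in IEL KO and 3.96% in IEL WT, and 3.68% in KO and 3.39% in WT unstimulated CD8 cells. The causes were not tested.

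With 2 libraries a group, KO effects of the size seen here cannot be told from the spread between libraries.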
